A study of Mus musculus with 6 samples.

Results

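The genes described here are 10 mouse genes that mark the hepatocytes around the central vein of the liver lobule or report Wnt signalling there: Tbx3, Glul, Axin2, Lgr5, Rnf43, Znrf3, Lect2, Rhbg, Slc13a3 and Slc1a2. They were listed by symbol, with cytochrome P450 genes left out, and each had 1 probe set among 16331 gene probe sets, of which 15644 carried a symbol. Expression was measured with Affymetrix arrays in total liver RNA from 3 samples labelled Ugcg-deficient (KO 427, KO 429 and KO 431) and 3 labelled wildtype (WT 426, WT 428 and WT 430). Ugcg encodes the enzyme that adds glucose to ceramide, the first step towards most glycosphingolipids. How and in which cells Ugcg was removed, and the strain, age and treatment of the mice, are not stated in the labels. Whether the samples came from separate animals is not stated in the labels, and the p-values may therefore reflect technical spread only.

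Hepatocytes differ along the axis from the portal tract to the central vein. Around the central vein, Wnt ligands and R-spondins from endothelial cells keep β-catenin active, and the hepatocytes there make glutamine from ammonia and glutamate. Nearer the portal tract, hepatocytes carry out ureagenesis and gluconeogenesis. Active β-catenin also turns on genes that restrain the pathway, such as Axin2, Rnf43 and Znrf3, so that these genes serve as readouts of Wnt signalling.

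Reference promoter sequences were found for 6 of the members, credited to RefSeq with build GRCm38.p6. They were searched for a core letter string of the TCF/LEF factors through which β-catenin acts, ATCAAAG on either strand, within 250 bases before each annotated start. Lect2 and Slc1a2 held it, and the windows of Glul, Axin2, Rnf43 and Slc13a3 did not. Of 32851 mouse windows of this length, 3.21% held the string. Both matching windows follow, because they are the members with the string, which is in capitals. The Lect2 window is chr13:56548539-56548788 on the minus strand, with the string 32 to 26 bases before the start. The Slc1a2 window is chr2:102706188-102706437 on the plus strand, with the string 207 to 201 bases before the start. A match of letters does not show binding by a factor, and which start sites the liver uses was not measured.
Lect2: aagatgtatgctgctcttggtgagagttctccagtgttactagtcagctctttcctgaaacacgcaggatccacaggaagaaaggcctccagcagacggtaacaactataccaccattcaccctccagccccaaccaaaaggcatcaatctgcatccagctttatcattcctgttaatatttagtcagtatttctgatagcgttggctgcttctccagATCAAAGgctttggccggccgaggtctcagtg
Slc1a2: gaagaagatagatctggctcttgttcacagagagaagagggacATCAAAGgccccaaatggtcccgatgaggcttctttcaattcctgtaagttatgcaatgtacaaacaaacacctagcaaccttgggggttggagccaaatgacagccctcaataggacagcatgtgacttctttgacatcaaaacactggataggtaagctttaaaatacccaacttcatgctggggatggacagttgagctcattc

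The arrays were comparable in scale, with array medians from 6.79 to 6.81 on the log2 scale. The liver label was checked against 8 hepatocyte markers. The albumin gene Alb read 14.60 to 14.69 on all arrays, and none of the 8 passed the test between KO and WT. Ugcg itself read 7.12, 6.70 and 6.68 on KO 427, KO 429 and KO 431, against 6.81, 6.85 and 6.87 on WT 426, WT 428 and WT 430. KO 427 thus lay above all WT arrays. The parts of the transcript that were deleted and that the probes read are not stated, and the probe set therefore leaves the genotype labels unchecked. The first principal component, with 31.5% of the variance, set KO 427 and WT 430 apart from the other arrays. Of 11 exocrine pancreas markers, 10 were highest in WT 430. Some results of the members are also given below without KO 427 or WT 430. Differences of genes in the other lists are given with all arrays only.

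No member of the group passed the test between KO and WT livers. The test was limma on the log2 values with p-values adjusted by Benjamini-Hochberg across the 16331 probe sets, and a call needs an adjusted p under 0.05. Of all probe sets, 4 were called, or 0.0245%. At an unadjusted p under 0.05 the count was 1 of 10 members, Tbx3, where 4.99% of all probe sets reached it. The KO and WT values failed to overlap for 1 of 10 members, again Tbx3, against 9.57% of all probe sets. These shares are close to the background. The differences of the members were above 0 for 5 and below 0 for 5, and 52.5% of all probe sets were above 0. Their median difference, KO minus WT, was 0.0406 on the log2 scale, beside 0.00586 for all probe sets. In whole-liver RNA, a change in the number of pericentral hepatocytes and a change in RNA per cell cannot be told apart.

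**Figure D1:**
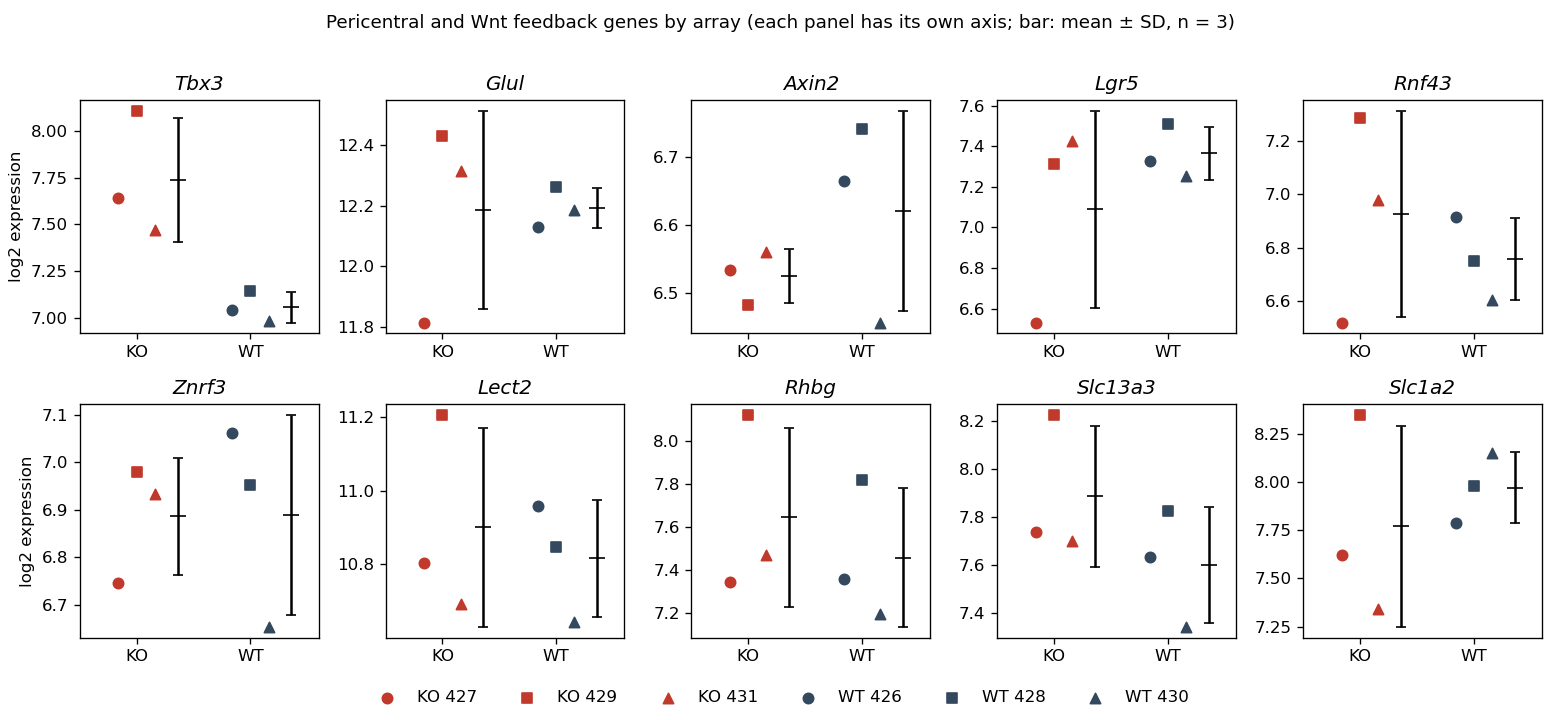
Log2 expression of the 10 genes on each array, with KO at the left and WT at the right of each panel; symbols mark the arrays, and the bar gives the mean ± SD of 3 arrays. Tbx3 alone among the 10 has KO values that all lie above the WT values, and KO 429 (red square) is the highest array in 7 panels.

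Tbx3, a T-box transcriptional repressor that is a β-catenin target in liver, showed the widest difference of the 10. It read 7.64 on KO 427, 8.11 on KO 429 and 7.47 on KO 431, against 7.04 on WT 426, 7.14 on WT 428 and 6.98 on WT 430. Every KO array lay above every WT array, and the KO arrays were spread more widely than the WT arrays. The means were 7.74 ± 0.33 in KO livers and 7.05 ± 0.08 in WT livers (SD, n = 3 each). KO minus WT was 0.68 (SE 0.147), which is 1.61-fold higher in KO livers with a 95% interval of 1.28 to 2.03. The unadjusted limma p was 0.00125 and the adjusted p was 0.638, so the difference did not pass. Without KO 429 the difference was 0.50 (limma adjusted p = 0.626), and without KO 431 it was 0.82 (limma adjusted p = 0.369). Over all alternatives the limma adjusted p of Tbx3 ran from 0.369 to 0.9997.

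Glul, glutamine synthetase, which joins ammonia to glutamate in the hepatocytes nearest the central vein, had nearly equal group means. It read 11.81, 12.43 and 12.31 on KO 427, KO 429 and KO 431, against 12.13, 12.26 and 12.19 on WT 426, WT 428 and WT 430. KO 427 was the lowest and KO 429 the highest of the 6 arrays, with all WT arrays between them. The difference was -0.01 (SE 0.144, limma adjusted p = 0.9998), with a 95% interval of -0.33 to 0.32. Without KO 427 it was 0.18 (limma adjusted p = 0.991).

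The transporters Slc1a2, Rhbg and Slc13a3 carry substrates across the cell membrane, and each was highest on KO 429. Slc1a2, a sodium-dependent glutamate transporter, read 7.62, 8.35 and 7.34 on KO 427, KO 429 and KO 431, against 7.79, 7.98 and 8.15 on WT 426, WT 428 and WT 430. The KO arrays held both its highest and its lowest value. Its difference of -0.20 (SE 0.224, 95% interval -0.71 to 0.30) became -0.49 without KO 429 and 0.01 without KO 431.

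Rhbg, an ammonium transporter of the Rhesus family, read 7.35, 8.12 and 7.47 on the KO arrays in the same order, against 7.36, 7.82 and 7.20 on the WT arrays. KO 429 and WT 428 stood above the remaining 4 arrays. The difference was 0.19 (SE 0.214, 95% interval -0.30 to 0.67) with all arrays and -0.05 without KO 429. It was 0.06 without WT 430 and 0.34 without KO 427. Slc13a3, a sodium-dependent dicarboxylate transporter, read 7.74, 8.23 and 7.70 on the KO arrays, against 7.63, 7.82 and 7.34 on the WT arrays. WT 428 lay above 2 of the KO arrays, so the groups overlapped. Its difference was 0.29 (SE 0.161, 95% interval -0.08 to 0.65), 0.12 without KO 429 and 0.16 without WT 430. The limma adjusted p was 0.986 for Slc1a2, 0.986 for Rhbg and 0.982 for Slc13a3.

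Lect2, a secreted protein of hepatocytes and a β-catenin target in mouse liver, read 10.80, 11.21 and 10.69 on KO 427, KO 429 and KO 431, against 10.96, 10.85 and 10.64 on WT 426, WT 428 and WT 430. KO 429 was the highest and WT 430 the lowest array. Between them, WT 426 and WT 428 both lay above KO 427 and KO 431. The difference was 0.08 (SE 0.137, 95% interval -0.23 to 0.39, limma adjusted p = 0.988), and -0.07 without KO 429. Lect2 and Slc1a2, the members whose promoter windows hold the TCF/LEF string shown above, were both highest on KO 429, but Slc13a3, Rnf43 and Glul, whose windows lack it, were as well.

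The Wnt feedback genes gave no common direction. Axin2, a scaffold of the complex that destroys β-catenin, read 6.53, 6.48 and 6.56 on KO 427, KO 429 and KO 431, against 6.66, 6.74 and 6.46 on WT 426, WT 428 and WT 430. The KO arrays lay within the range of the WT arrays. Its difference was -0.09 (SE 0.0865, 95% interval -0.29 to 0.10, limma adjusted p = 0.984). It was -0.18 without WT 430, the array with the pancreatic transcripts, and stayed below 0 under all alternatives tried.

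Rnf43 and Znrf3 are membrane ubiquitin ligases that remove Frizzled receptors from the cell surface. Rnf43 read 6.52, 7.29 and 6.98 on the KO arrays in the same order, against 6.92, 6.75 and 6.60 on the WT arrays. The KO arrays again held both extremes, KO 427 the lowest and KO 429 the highest. Its difference was 0.17 (SE 0.174, 95% interval -0.22 to 0.57, limma adjusted p = 0.986), -0.01 without KO 429 and 0.38 without KO 427. Znrf3 read 6.75, 6.98 and 6.93 on the KO arrays, against 7.06, 6.95 and 6.65 on the WT arrays. The WT arrays spanned the KO arrays, and the difference was -0.0028 (SE 0.114, 95% interval -0.26 to 0.26, limma adjusted p = 1).

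Lgr5, the R-spondin receptor that shields Frizzled from Rnf43 and Znrf3, read 6.53, 7.31 and 7.42 on KO 427, KO 429 and KO 431, against 7.33, 7.51 and 7.25 on WT 426, WT 428 and WT 430. KO 427 lay below the other 5 arrays, which were close together. The difference of -0.28 (SE 0.206, 95% interval -0.74 to 0.19, limma adjusted p = 0.982) was 0.0034 without KO 427. The lower KO mean of Lgr5 therefore rests on that array.

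**Figure D2:**
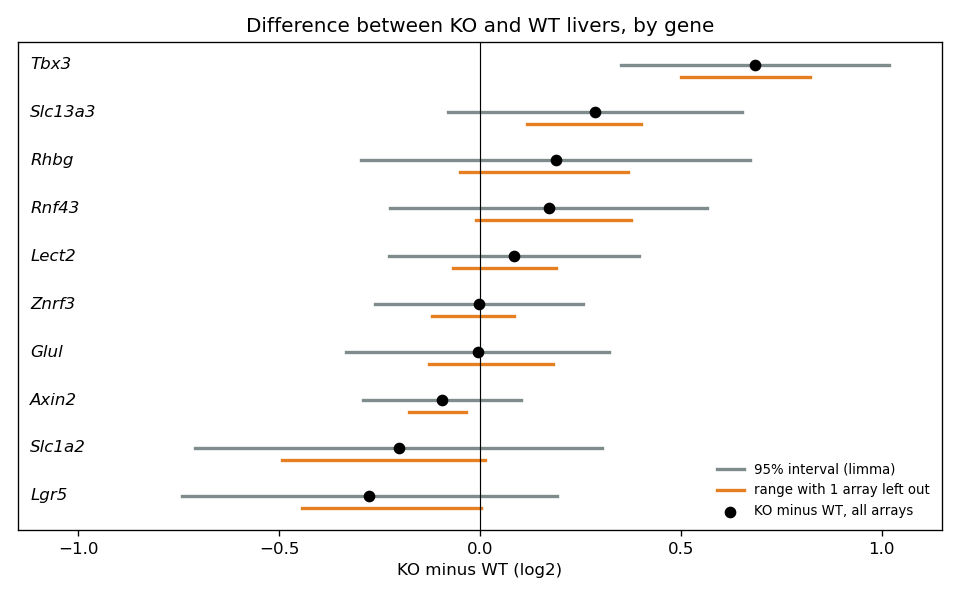
KO minus WT difference of each gene on the log2 scale (black point), its 95% interval from limma (grey) and the range when each array in turn is left out (orange). The intervals of 9 genes include 0; that of Tbx3 runs from 0.35 to 1.02, before any adjustment for the number of probe sets.

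The members varied more between arrays of one genotype than most genes did. Their residual SD within genotype ran from 0.107 for Axin2 to 0.391 for Slc1a2, with a median of 0.256. All 10 lay above the median of all probe sets, 0.103, Axin2 only just. That median includes probe sets of low signal, and the comparison was not matched for expression level. KO 429 was the highest array for 7 of 10 members, and for 19.1% of all probe sets. WT 430 was the lowest array for 6 of 10 members, and for 18.3% of all probe sets. Centred on each gene's mean over the 6 arrays, the median of the members was -0.17 on KO 427, 0.40 on KO 429 and 0.02 on KO 431, against 0.01 on WT 426, 0.08 on WT 428 and -0.22 on WT 430. The KO arrays thus held the highest value and the second lowest. Without KO 429, 2 of 10 members had a positive difference, and the median difference of the members was -0.0589. Without WT 430 the median was -0.0054, and without KO 427 it was 0.16.

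Other pericentral genes were also high on KO 429. Of 15 measured, none of them members, 9 were highest on that array. Their centred median was -0.08, 0.26 and -0.03 on KO 427, KO 429 and KO 431, against 0.00, 0.10 and 0.01 on WT 426, WT 428 and WT 430. None passed the test. Their difference was above 0 for 8 and below 0 for 7, and its median was 0.0195. Oat, ornithine aminotransferase, read 13.01, 13.40 and 13.02 on the KO arrays, against 12.80, 12.86 and 12.59 on the WT arrays. Its groups did not overlap (0.39, SE 0.121, limma adjusted p = 0.951). In this list of 15 the groups failed to overlap for 2 higher genes and 1 lower gene, beside 9.57% of all probe sets. The higher genes were Oat and Cldn2, and the lower gene was Cyp2e1, with a difference of -0.05. Cldn2, a tight junction claudin, had a difference of 0.31. Csad, which takes part in taurine synthesis, had one of -0.36, with overlapping groups. The P450 gene Cyp2e1 moved little between arrays, from 14.00 on KO 427 to 14.12 on WT 426. The highest value of any probe set was 14.60 on KO 429 and 14.69 on KO 427. Cyp2e1 was thus read near the top of the scale, and whether strong signals are compressed there was not tested.

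Periportal genes did not share the high values on KO 429. Of 15 measured, 2 were highest there, and their centred median was -0.05, 0.02 and 0.05 on KO 427, KO 429 and KO 431, against 0.03, -0.04 and -0.05 on WT 426, WT 428 and WT 430. This list includes Alb, which read at the top of the scale. The gluconeogenic gene G6pc was the 1 gene of this list called by limma, higher by 0.93 in KO livers (SE 0.0900, adjusted p = 0.0379). Pck1, which makes phosphoenolpyruvate, had a difference of 0.38, the cadherin gene Cdh1 one of 0.26 and the urea cycle gene Otc one of -0.19, and these did not pass. No probe set at all, G6pc included, was called when KO 427, KO 429, KO 431, WT 426 or WT 428 was left out.

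**Figure D3:**
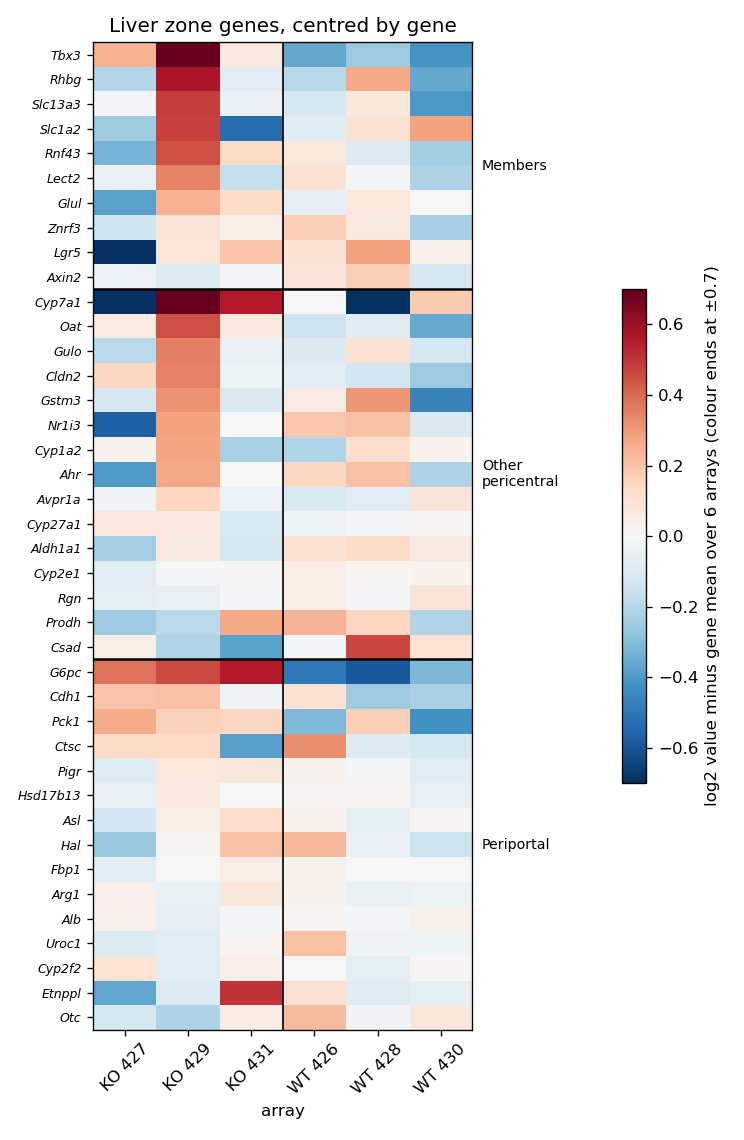
Log2 values minus the gene's mean over the 6 arrays (colour) for the members, 15 other pericentral genes and 15 periportal genes (rows, ordered within each list by KO 429) on the KO arrays and then the WT arrays (columns). The KO 429 column is red for 9 of 10 members, whereas in the periportal list G6pc stands out on all 3 KO arrays.

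Markers of other cell types were read on the same arrays, and none was called between KO and WT. The bile duct keratin gene Krt19 read 6.34, 7.60 and 6.37 on KO 427, KO 429 and KO 431, against 6.33, 6.46 and 6.45 on WT 426, WT 428 and WT 430. The bile duct adhesion gene Epcam read 6.40, 6.86 and 6.22 on the KO arrays, against 6.26, 6.23 and 6.35 on the WT arrays. KO 429 thus stood above the other arrays for both, as it did for most members; both were singled out after their values were seen. Over the 5 measured bile duct markers, 4 were higher and 1 lower in KO livers, and 2 were highest on KO 429. Their centred median was 0.01, 0.07 and -0.06 on the KO arrays, against -0.13, -0.02 and -0.03 on the WT arrays. Of 7 central vein endothelium markers, which include the ligands Wnt2, Wnt9b and Rspo3, 4 were highest on KO 429. Their centred median lay at 0.01, 0.10 and -0.10 on KO 427, KO 429 and KO 431, and between -0.03 and 0.05 on the WT arrays. In KO livers 3 of these were higher and 4 lower. Means above the 40th percentile of all probe sets were seen for 3 of these 7, and for 2 of the 5 bile duct markers. Signal of the remaining markers of these lists, Wnt9b and Epcam included, was low. Of 9 markers of the liver endothelium at large, 2 were higher and 7 lower, with a median of -0.0221 for KO minus WT, and of 7 stellate cell markers 3 were higher and 4 lower, with a median of -0.00033. KO 429 was the highest array for 2 of the 9 endothelium markers, with a centred median of 0.07 there. It was the highest for 0 of the 7 stellate cell markers, with a centred median of -0.10. All 7 Kupffer cell markers had a lower mean in KO livers, with a median difference of -0.118, while 4 of them were highest on KO 429, where the centred median was 0.18. It was 0.03 on KO 427 and -0.36 on KO 431, and between 0.00 and 0.14 on the WT arrays. The centred median of the hepatocyte markers stayed between -0.03 and 0.03 on all arrays. Alb and Ttr among them read near the top of the scale, where compression of signal was not tested. The exocrine pancreas markers had a centred median of 2.36 on WT 430 and of -0.53 to -0.42 on the other arrays. The part of these cells in the members' values was not tested.

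**Figure D4:**
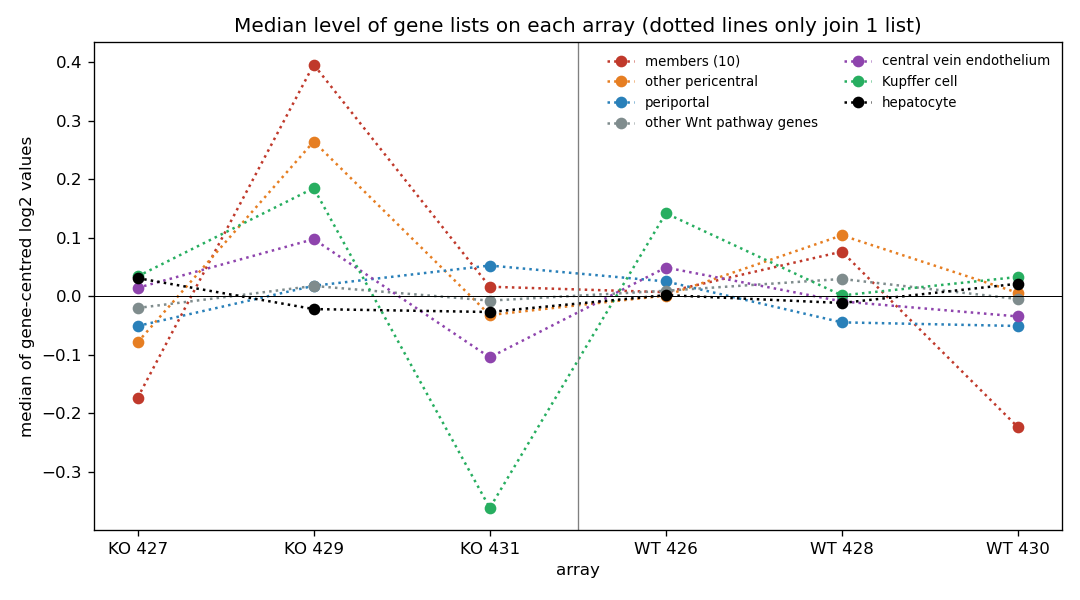
Median of gene-centred log2 values of each gene list on each array, with the KO arrays at the left; dotted lines only join the points of 1 list. On KO 429 the members reach 0.40, the other pericentral genes 0.26, the Kupffer cell markers 0.18 and the central vein endothelium markers 0.10. The periportal and hepatocyte lists stay near 0 on all arrays.

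The remaining genes of the Wnt pathway showed no called difference. Of 93 measured genes beside the members, 40 were higher and 53 lower, and 0 were called by limma. At an unadjusted p under 0.05 there was 1 higher gene, beside 2.64% of all probe sets, and there were 4 lower genes, beside 2.35%. The KO and WT values failed to overlap for 3 higher and 6 lower genes of the 93. Over all probe sets the share without overlap, in either direction, was 9.57%, so the Wnt genes lay close to the background. The median difference of the 93 was -0.0124, and KO 429 was the highest array for 24 of them, beside 19.1% of all probe sets. Of the 93, 47 had a mean above the 40th percentile of all probe sets, where all 10 members also lay. That percentile is at 6.51. Among the Wnt genes named below, Wnt2b, Wnt7a, Rspo1, Fzd6, Fzd9, Tle3, Dkk3 and Lgr6 had a mean under it, where signal is low.

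Among 23 ligands, 10 were higher and 13 lower. Wnt2b had the smallest p, with 6.04, 5.98 and 6.17 on KO 427, KO 429 and KO 431, against 6.31, 6.31 and 6.35 on WT 426, WT 428 and WT 430. The groups did not overlap, and the difference was -0.27 (limma adjusted p = 0.888). Wnt7a differed by -0.18, Rspo1 by -0.13 and Rspo3, the R-spondin made by central vein endothelium, by -0.09. Among 16 receptors, 5 were higher and 11 lower. The Frizzled genes Fzd6 (-0.22), Fzd9 (-0.19) and Fzd7 (-0.10) had values on the KO arrays that were all below those on the WT arrays, and none passed (limma adjusted p from 0.951 to 0.982). Lgr4, a receptor of R-spondins related to Lgr5, differed by -0.13, with overlapping groups.

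Inside the cell, Ctnnb1, which encodes β-catenin itself, read 10.14, 10.11 and 10.21 on the KO arrays, against 10.10, 10.13 and 10.15 on the WT arrays. The arrays of both groups fell in one narrow range, and the difference was 0.03 (SE 0.0669, limma adjusted p = 0.996). Of the 16 genes of its destruction complex and signalling, 6 were higher and 10 lower, with -0.14 for the kinase gene Gsk3a, -0.13 for Csnk1a1 and 0.11 for Csnk1e. Of 11 nuclear partners, 3 were higher and 8 lower. Tcf7l2, a TCF factor that binds DNA together with β-catenin, differed by -0.24 (limma adjusted p = 0.982), and the corepressor genes Tle2, Tle3 and Tle1 by -0.15, 0.15 and -0.12.

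Of 16 inhibitors, 9 were higher and 7 lower. Sfrp4, a secreted Frizzled-related protein, differed by -0.18, Dkk3 by 0.13, Kremen1 by -0.10 and Notum, which removes the lipid of Wnt ligands, by -0.01. Of 14 other target genes, 8 were higher and 6 lower. The cyclin gene Ccnd1 read 8.60, 8.63 and 8.15 on KO 427, KO 429 and KO 431, against 7.84, 7.72 and 8.04 on WT 426, WT 428 and WT 430. Its groups did not overlap, and the difference was 0.60 (SE 0.137, limma adjusted p = 0.670). Myc differed by -0.50, Jun by 0.49 and Id2 by -0.10, each with overlapping groups, so that these targets gave no shared direction.

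**Figure D5:**
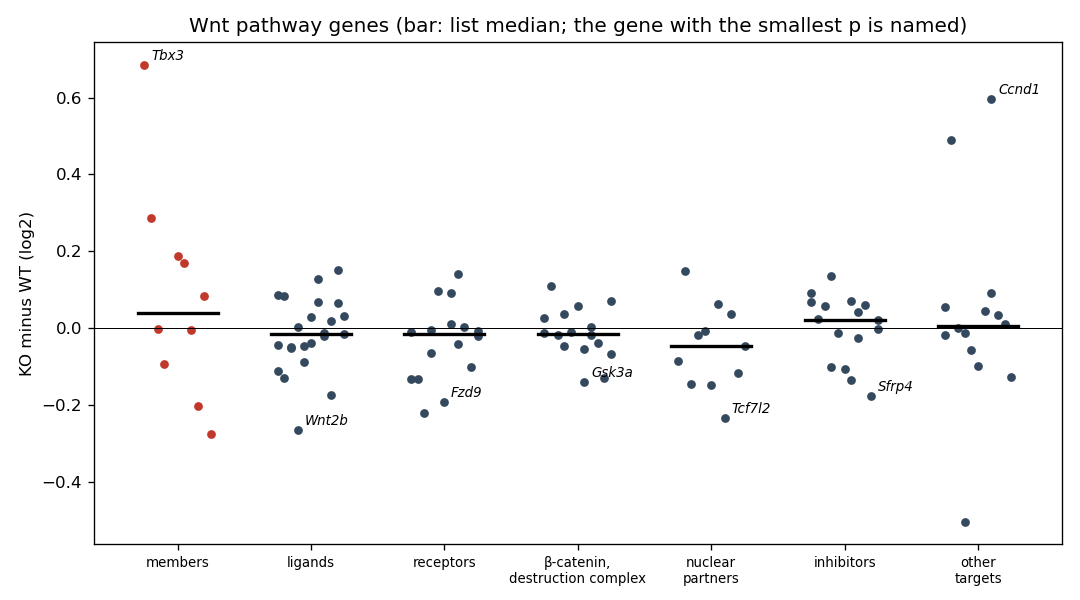
KO minus WT difference on the log2 scale of each measured gene (points) of the members and of 6 other Wnt lists, with the list median as a bar; the gene with the smallest p in each list is named. The list medians lie between -0.05 and 0.04, and Tbx3 (0.68) and Ccnd1 (0.60) are the highest points.

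No gene that works beside Glul, Rhbg and Slc1a2 passed the test. Of 11 measured genes of glutamine and ammonia handling, 3 were higher and 8 lower. Their median difference was -0.0586, and 0 were called by limma. Glud1, glutamate dehydrogenase, read 12.42, 12.49 and 12.49 on the KO arrays, against 12.51, 12.57 and 12.59 on the WT arrays. The groups did not overlap, at a difference of -0.09 (limma adjusted p = 0.982). Glud1 was the 1 gene of the 11 without overlap, beside 9.57% of all probe sets. The glutamine transporter genes Slc38a3 and Slc38a5 differed by -0.09 and 0.08. Of 22 family relatives of the members, 12 were higher and 10 lower and 0 were called. Slc13a5, a citrate transporter related to Slc13a3, differed by 0.14, the glutamate transporter gene Slc1a1 by 0.12 and Lgr6 by 0.14. The means of Slc38a5, Slc13a5, Slc1a1 and Lgr6 lay under the 40th percentile of all probe sets, where signal is low.

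The genes most like Tbx3 and Glul over the 6 arrays were found by the root mean square distance between values centred on each gene's mean. Nearest to Tbx3 were Ccdc68 (0.154), Oat (0.173) and Tspan8 (0.180), where the median distance of all named genes was 0.403. Oat is itself a pericentral gene. Nearest to Glul were Lat (0.0498), Ilf2 (0.0650) and Gm4787 (0.0652), against a median distance of 0.213. These distances describe 6 arrays only, and the genes were picked from all 15644 named ones for being near.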

How the data were processed

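The deposited table holds log2 expression values of 16395 probe sets on 6 arrays, a scale read from the values (5.38 to 14.69). Biotin-labelled cRNA was hybridised by the Affymetrix protocol, per the labels' protocols; the sources used here do not give background correction, normalization or summarisation. Values were used as deposited, without 64 AFFX controls. Probe sets are named by Entrez number; the platform annotation gave symbols, and 15617 matched the GRCm38.p6 gene table. KO was compared with WT by limma 3.58.1 (R 4.3.3; lmFit, eBayes, two-sided, 4 residual and 4.85 prior degrees of freedom), and the fit was tested on simulated data. The number of arrays limits the precision; the median standard error was 0.0847. Array levels are compared within a probe set only. The members and lists were chosen with earlier results of these data known. All members are named; of each other list, called genes, the 3 with the smallest p and the 1 with the highest mean. Marker lists, given as counts, are exempt. Of 214 other listed genes, 198 had a probe set. Alternatives were quantile normalization, median centring, a filter at the 40th percentile, an intensity trend with robust variance, array weights, other thresholds and leaving out arrays. Figures used matplotlib 3.10.9.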

Additional observations from a re-analysis of the deposited data

How the results depend on the processing

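Under 12 alternative fits, 0 of the 10 members were called by limma, and 0 at the looser adjusted threshold; by unadjusted p at 0.05 the count was 1. Of all probe sets, 4 were called, and 8 with array weights, 8 without KO 427 and WT 430 together (chosen after seeing the data), 8 at the looser adjusted threshold of 0.1 and 815 by unadjusted p at 0.05, with 0 to 4 when 1 array was left out. Tbx3, Slc13a3 and Axin2 kept the sign of their difference under all 12 alternatives. Glul turned to 0.0036 with quantile normalization, 0.0288 with array weights and 0.178 without KO 427 and WT 430 together. With 1 array left out in turn, the difference ran from 0.50 to 0.82 for Tbx3, -0.13 to 0.18 for Glul, -0.18 to -0.03 for Axin2, -0.44 to 0.0034 for Lgr5, -0.0096 to 0.38 for Rnf43, -0.12 to 0.0837 for Znrf3, -0.0684 to 0.19 for Lect2, -0.0495 to 0.37 for Rhbg, 0.12 to 0.40 for Slc13a3 and -0.49 to 0.0131 for Slc1a2, and the median of the members from -0.0589 to 0.16. Znrf3 was 0.0837 without WT 426, 0.0671 without KO 427 and 0.0285 without WT 428, and Glul was 0.0283 without WT 428 and 0.181 without KO 427. Lect2 was -0.0020 without WT 430. The cause of these sign changes was not tested. No paired analysis was possible because the labels share no replicate number between the groups.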
